A study of Mus musculus with 65 samples.

Results

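Hlf and Gata2 encode transcription factors of the blood-forming stem cell, and both were taken by name from the deposited table. Their rows were 2 of its 18036 gene identifiers, of which 6826 had a count in any cell. Hlf is a member of the PAR family of basic leucine zipper proteins, a family that also holds the clock-regulated factors Dbp and Tef, and in bone marrow it is known as a marker of the most immature stem cells, where mouse work ties it to quiescence. Gata2 is a zinc-finger protein that binds the GATA sequence, is needed for stem cells to form and persist, and is also made by mast cells, megakaryocyte-erythroid progenitors and endothelium. Both proteins sit in the regulatory network that separates long-term stem cells from cells already committed to a lineage, and both are counted among the transcripts by which long-term stem cells are recognised.

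The 65 cells came from femora and tibiae of mice older than 20 months that were double heterozygous for SCL-tTA and H2B-GFP, alleles that place a histone-bound GFP under a transactivator driven by SCL (Tal1) regulatory sequence. Once GFP synthesis is stopped, divisions dilute the protein, and cells that still fluoresce have divided little. All cells had the surface phenotype lineage depleted, LSK (lineage negative, Sca-1 and Kit positive), CD34-/low, Flk2-, CD48- and CD150+, and 37 GFP-positive cells, which retained the label, were set against 28 GFP-negative cells in 4 biological repeats. They were kept overnight at 3% oxygen with no growth factor before SMART-Seq v4 cDNA synthesis. The GFP-positive group had 9, 9, 10 and 9 cells in repeats 1 to 4, and the GFP-negative group had 8, 4, 6 and 10. The labels state neither the number of mice in a repeat nor the length of the chase, and a GFP-negative cell may have lost its label or never have had it.

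Cells differed in depth and in how much of the transcriptome they held. Summed counts per cell had a median of 264894 in GFP-positive cells (27954 to 20516069) and of 118056 in GFP-negative cells (86 to 661078). A median of 1948 and 961.5 genes had a count in the GFP-positive and the GFP-negative cells, and the 10 most abundant genes of a cell took a median of 28.2% and 42.9% of its counts. In the GFP-negative group 4 cells held fewer than 10000 counts, and these were left out of mean levels and thinned shares. Of 10 genes listed as markers of long-term stem cells, 4 were in the table: Hlf and Gata2 themselves, Fgd5, which had counts in 1 GFP-positive and 1 GFP-negative cell, and Slamf1, which encodes the CD150 used in the sort and was listed at 0 in all cells. Apart from the members, the listed markers in the table thus gave almost no counts against which the sorted phenotype could be checked.

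Hlf (NCBI gene 217082) lies on the minus strand of chr11:90336535-90390917, and Gata2 (NCBI gene 14461) lies on the plus strand of chr6:88193891-88207032, both in GRCm38.p6. No other annotated gene overlaps either of them, so their counts do not depend on the strand of the reads. RefSeq gives Gata2 a pair of start sites, which a gene-level count cannot separate. The 250 bases just before each start are shown, with capitals marking the 1 match found in them. The window of the downstream Gata2 start lies within the gene.
Hlf, chr11:90390918-90391167, minus strand: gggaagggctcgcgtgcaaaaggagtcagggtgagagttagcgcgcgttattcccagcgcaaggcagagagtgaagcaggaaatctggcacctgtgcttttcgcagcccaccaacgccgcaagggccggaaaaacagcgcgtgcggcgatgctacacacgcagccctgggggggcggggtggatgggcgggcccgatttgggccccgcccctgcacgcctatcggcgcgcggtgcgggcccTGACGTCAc
Gata2 upstream start, chr6:88193641-88193890, plus strand: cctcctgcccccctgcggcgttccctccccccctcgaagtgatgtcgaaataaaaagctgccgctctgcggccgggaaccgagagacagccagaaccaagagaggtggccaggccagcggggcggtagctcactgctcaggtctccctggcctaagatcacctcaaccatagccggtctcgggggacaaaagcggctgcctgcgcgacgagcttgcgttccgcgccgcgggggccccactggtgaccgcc
Gata2 downstream start, chr6:88198414-88198663, plus strand: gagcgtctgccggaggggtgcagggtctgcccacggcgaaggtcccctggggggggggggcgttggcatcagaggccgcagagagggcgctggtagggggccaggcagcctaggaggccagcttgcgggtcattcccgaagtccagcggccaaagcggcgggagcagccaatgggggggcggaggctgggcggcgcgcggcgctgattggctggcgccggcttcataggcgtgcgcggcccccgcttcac
The match is the cyclic AMP response element TGACGTCA, 9 bases before the Hlf start, a motif searched after the sequence had been seen. It occurs in 1.55% of the 32851 start windows of that length in the RefSeq table. Neither the GATA motif, searched on both strands as AGATAA or TGATAA and present in 16.6% of windows, nor the PAR motif TTACGTAA or TTATGTAA, present in 0.932%, was found in the 3 windows. The windows were rich in G and C, at 67.2% for Hlf and 67.2% and 74% for the upstream and downstream Gata2 starts.

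Hlf was found in most GFP-positive cells of every repeat, and in GFP-negative cells almost wholly in repeats 1 and 2. GFP-positive cells had an Hlf count in 9 of 9, 8 of 9, 7 of 10 and 7 of 9 cells of repeats 1 to 4. GFP-negative cells had one in 8 of 8, 3 of 4, 0 of 6 and 1 of 10. The groups overlapped through repeats 1 and 2, while in repeats 3 and 4 the GFP-negative shares lay far under every GFP-positive share. Averaged over repeats, 84.2% ± 13.1 of GFP-positive cells and 46.3% ± 48.9 of GFP-negative cells held Hlf (SD, n = 4 repeats each). The difference was 37.9 percentage points with a standard error of 25.3, and a two-sided exact permutation test over the 4 against 4 repeats gave p = 0.286, or 0.381 after Benjamini-Hochberg adjustment over 8 comparisons. This test cannot go below 0.0286. GFP-positive cells thus had the higher Hlf share in 3 of 4 repeats and an equal one in repeat 1, and the difference did not exceed the spread between repeats. The 0 of 6 cells of repeat 3 still allow a share of up to 50%, by a limit of 3 cells, and intervals and limits of this kind cover counting error only.

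Gata2 had the same direction with lower shares. GFP-positive cells had a Gata2 count in 7 of 9, 4 of 9, 8 of 10 and 5 of 9 cells, and GFP-negative cells in 6 of 8, 1 of 4, 1 of 6 and 2 of 10. Repeat 1 was high in both groups, and the other GFP-negative repeats all lay under the lowest GFP-positive share. The mean shares were 64.4% ± 17.3 in GFP-positive and 34.2% ± 27.4 in GFP-negative cells (SD, n = 4 repeats each), a difference of 30.3 points with a standard error of 16.2. Every repeat had the higher share in GFP-positive cells, and the exact permutation test gave p = 0.114, adjusted 0.381.

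Co-detection, meaning a count of both genes in one cell, was found in 22 of 37 GFP-positive cells and 7 of 28 GFP-negative cells. By repeat, GFP-positive cells with both numbered 7, 3, 7 and 5, and GFP-negative cells with both numbered 6, 1, 0 and 0. No GFP-negative cell of repeats 3 and 4 held both transcripts, against 12 of the 19 GFP-positive cells of those repeats. The mean shares were 59.2% ± 19.5 in GFP-positive and 25% ± 35.4 in GFP-negative cells (SD, n = 4 repeats each), a difference of 34.2 points, with an exact permutation p of 0.143, adjusted 0.381. These raw shares include the 4 GFP-negative cells with fewer than 10000 counts. With cells of at least 10000 counts the differences were 31.0 points for Hlf, 24.3 for Gata2 and 29.4 for both (exact permutation p = 0.429, 0.229 and 0.257).

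**Figure D1:**
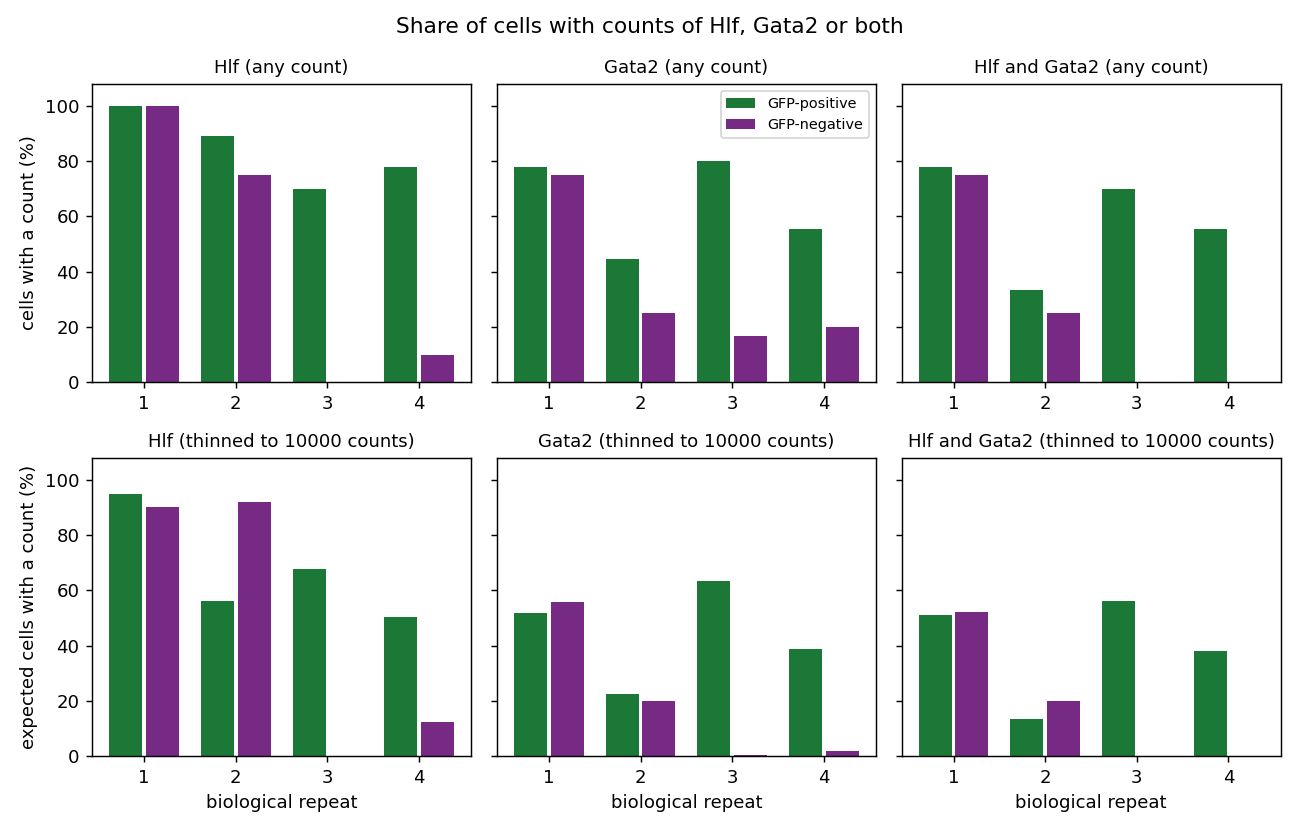
Share of cells (vertical axis, percent) with a count of Hlf, Gata2 or both in each biological repeat (horizontal axis), for GFP-positive (green) and GFP-negative cells (purple); the top row uses any count and the bottom row the share expected after each cell of at least 10000 counts is thinned to 10000. In repeats 3 and 4 the GFP-negative Hlf bars stand at 0% and 10% beside 70% and 77.8% in GFP-positive cells, and in repeat 1 both stand at 100%.

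Most cells with Gata2 also held Hlf, while Hlf was often found alone. Among GFP-positive cells 22 held both, 9 Hlf alone, 2 Gata2 alone and 4 neither. Among GFP-negative cells 7 held both, 5 Hlf alone, 3 Gata2 alone and 13 neither. Hlf was found in 91.7% of the GFP-positive cells with Gata2 and in 69.2% of those without it. In GFP-negative cells the same shares were 70% and 27.8%. The product of the separate shares, taken within pairs of repeats, would give 57.7% of GFP-positive cells of repeats 1 and 2 with both, where 55.6% were observed, and 50.4% in repeats 3 and 4, where 63.2% were observed. In GFP-negative cells the products were 53.5% in repeats 1 and 2 and 1.17% in repeats 3 and 4, where 58.3% and 0% were observed. The largest gap was thus above the product, in GFP-positive cells of repeats 3 and 4. The other gaps, above or below it, were small for groups of 12 to 18 cells. All 3 GFP-negative cells with Gata2 alone came from repeats 3 and 4 and held 1 or 2 Gata2 counts each.

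The cells with both transcripts were also those with many genes. GFP-positive cells with both had a median of 2475 genes, against 1389 in those with Hlf alone and 677.5 in those with neither. GFP-negative cells with both had a median of 1385 genes, against 971 with Hlf alone and 780 with neither. Summed counts followed this order in GFP-positive cells, with medians of 528037 counts in cells with both, 268737 with Hlf alone and 201478 with neither. In GFP-negative cells they did not, with medians of 40947 in the 7 cells with both, 54723 with Hlf alone and 235259 in the 13 with neither. The part of gene number and depth in the co-detection was not tested.

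A stricter definition of detection left Hlf more common than Gata2. At 10 counts or more, Hlf was found in 23 of 37 GFP-positive and 10 of 28 GFP-negative cells. Gata2 at that level was found in 16 GFP-positive and 3 GFP-negative cells, and both genes in 14 and 3. All 3 of those GFP-negative cells belonged to repeat 1. Of the 10 GFP-negative cells with any Gata2, 7 held only 1 to 5 counts, against 8 of 24 GFP-positive cells.

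Thinning every cell to 10000 counts, by the exact chance of drawing at least 1 count, lowered the GFP-positive shares and left the contrast of repeats in place. The 37 GFP-positive cells had an expected Hlf share of 94.9%, 56.3%, 67.8% and 50.2% in repeats 1 to 4. The 24 GFP-negative cells deep enough had 90.3%, 91.9%, 0% and 12.5%. Hlf was thus lower in GFP-positive than in GFP-negative cells of repeat 2 and higher in the other repeats, with means of 67.3% ± 19.8 and 48.7% ± 49.3 (SD, n = 4 repeats each) and an exact permutation p of 0.429, adjusted 0.49. For Gata2 the thinned shares were 51.8%, 22.5%, 63.4% and 38.6% in GFP-positive cells. In GFP-negative cells they were 55.9%, 20%, 0.59% and 1.9%. The Gata2 shares differed by under 5 points in repeats 1 and 2, and Gata2 was almost absent from GFP-negative cells of repeats 3 and 4 at this depth, with an exact permutation p of 0.171 for means of 44.1% ± 17.6 in GFP-positive and 19.6% ± 25.8 in GFP-negative cells (SD, n = 4 repeats each). Both genes together had thinned means of 39.7% ± 19.1 in GFP-positive and 18% ± 24.6 in GFP-negative cells (SD, n = 4 repeats each; exact permutation p = 0.286).

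The level of each gene was taken as counts per 10000 counts of the cell, averaged within a repeat. Mean Hlf levels were 6.67, 9.32, 5.63 and 6.31 per 10000 in GFP-positive repeats 1 to 4. In GFP-negative repeats they were 17.8, 3.15, 0 and 0.99. The GFP-positive repeats lay close together, while the GFP-negative ones held both the highest and the lowest values. The means of 6.98 ± 1.62 and 5.48 ± 8.31 per 10000 in GFP-positive and GFP-negative cells (SD, n = 4 repeats each) differed by 1.5, with an exact permutation p of 0.8, adjusted 0.8. Mean Gata2 levels were 2.01, 0.839, 4.46 and 1.94 per 10000 in GFP-positive repeats, against 3.68, 0.244, 0.0059 and 0.0194 in GFP-negative repeats. They averaged 2.31 ± 1.53 and 0.986 ± 1.8 per 10000 in GFP-positive and GFP-negative cells (SD, n = 4 repeats each), with an exact permutation p of 0.286. Repeat 1 was the one repeat in which the GFP-negative level was the higher, for both genes.

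One GFP-negative cell of repeat 1 carried most of that group's Hlf. It held 3836 Hlf counts, which is 96.2 per 10000 of its counts and 93.7% of all Hlf counts in the group. Without it, the GFP-negative mean of repeat 1 became 4.72 per 10000 and that of the group 2.22 ± 2.13 (SD, n = 4 repeats), below all 4 GFP-positive repeats. The difference was then 4.77 per 10000 with an exact permutation p of 0.0286, the smallest these repeats allow; this was chosen after the data were seen, and p ranged from 0.0286 to 1 over all alternatives tried. The same p was reached with cells of at least 1000 genes, a filter also chosen after the data were seen, which removes that same cell of 679 genes; there the means were 8.88 ± 1.6 in 29 GFP-positive and 2.13 ± 2.49 per 10000 in 13 GFP-negative cells (SD, n = 4 repeats each). The mean level of Hlf thus turned on 1 library.

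**Figure D2:**
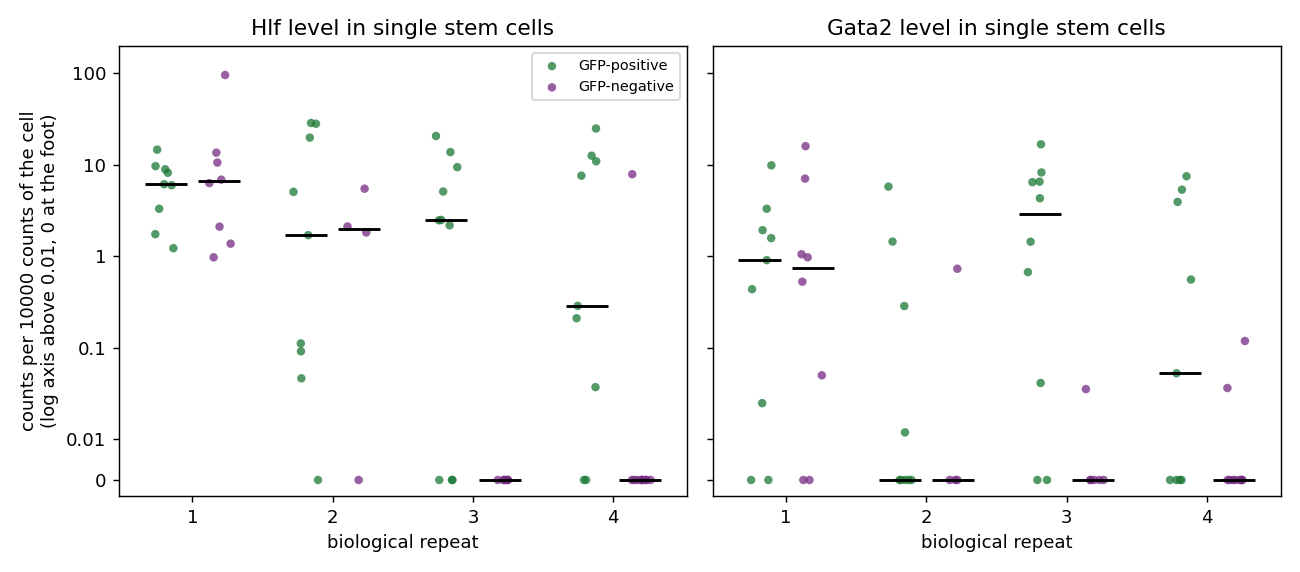
Level of Hlf (left) and Gata2 (right) in each cell (points), as counts per 10000 counts of the cell on a log axis with 0 at the foot, by biological repeat, for GFP-positive (green) and GFP-negative cells (purple); bars are medians over all cells of a repeat. One GFP-negative cell of repeat 1 stands at 96.2 Hlf counts per 10000, and the medians of both genes are at 0 in GFP-negative cells of repeats 3 and 4. The Gata2 median is also at 0 in repeat 2 of both groups.

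Among cells that held Hlf, its median level was nearly equal in the groups. GFP-positive cells with Hlf had a median of 6 per 10000 (0.0372 to 28.7, 31 cells), and GFP-negative cells with Hlf had 5.91 (0.977 to 96.2, 12 cells). In GFP-negative repeats 3 and 4 the single Hlf-positive cell had 7.92 per 10000 from 22 counts, within the range of GFP-positive cells. Gata2, in contrast, had a median of 1.76 per 10000 in 24 GFP-positive cells with a count and 0.631 in 10 such GFP-negative cells. These medians are over cells, which share their repeat, and carry no test. The GFP-negative cells were shallower, with median totals of 40947 with both genes and 54723 with Hlf alone. In GFP-positive cells these were 528037 and 268737. A low level can be missed in a shallower cell, and 8 of the 12 GFP-negative cells with Hlf came from repeat 1. The near-equal Hlf medians are thus not a like comparison of the groups. In cells that held both genes, Hlf had more counts than Gata2 in 19 of 22 GFP-positive and 5 of 7 GFP-negative cells, with a median log2 ratio of 1.98 and 2.00. That ratio is not adjusted for transcript length, since counts per gene are all the table holds.

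The contrast between the pairs of repeats can be stated as one difference for each. The GFP-positive minus GFP-negative difference in Hlf detection was 6.94 points in repeats 1 and 2 and 68.9 points in repeats 3 and 4. For Gata2 it was 11.1 and 49.4 points, and for both together 5.56 and 62.8 points. After thinning, the Hlf difference was -15.5 points in repeats 1 and 2 and 52.7 points in repeats 3 and 4, and that of Gata2 was -0.773 and 49.8 points. This split was made after the values were seen, and with 2 against 2 repeats no exact permutation test can go below 0.333. In repeats 3 and 4 together Hlf was found in 14 of 19 GFP-positive cells (exact binomial 95% interval 48.8 to 90.8%) and 1 of 16 GFP-negative cells (0.158 to 30.2%). These intervals pool the cells of 2 repeats, leave out the spread between repeats and are no test of the groups.

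Gene number moved in part with these shares, while median depth in repeats 3 and 4 did not. In repeats 3 and 4 the GFP-negative cells had higher median totals, at 271753 and 201757 counts against 201268 and 164961 in GFP-positive cells of the same repeats, although 2 of the 10 GFP-negative cells of repeat 4 held fewer than 10000 counts and no GFP-positive cell did. They held fewer genes, with medians of 1137 and 764 against 1620 and 1258 in GFP-positive cells. Within repeats 3 and 4, cells of 1000 to 2000 genes held Hlf in 4 of 4 GFP-positive and 0 of 5 GFP-negative cells, and Gata2 in 3 of 4 and 1 of 5. All 18 GFP-positive cells with 2000 or more genes held Hlf and 16 of them Gata2, and the 2 GFP-negative cells of that kind, from repeats 1 and 2, both held Hlf and 1 held Gata2. With cells of at least 1000 genes alone, Hlf detection was 100%, 87.5%, 100% and 100% in GFP-positive and 100%, 100%, 0% and 0% in GFP-negative repeats. GFP-negative cells of this kind numbered only 4 in repeat 3 and 1 in repeat 4. In repeats 3 and 4, 8 GFP-positive cells and 0 GFP-negative cells had 2000 or more genes, so gene numbers were not matched. The filter was chosen after the data were seen, and the part of gene number was not tested.

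Across cells of at least 10000 counts, the Hlf level followed the number of genes in a cell, with a Spearman rho of 0.68 over 37 GFP-positive and 0.39 over 24 GFP-negative cells. For Gata2 the values were 0.50 and 0.36. With the summed count, rho was 0.35 for Hlf and 0.12 for Gata2 in GFP-positive cells, and -0.52 and -0.37 in GFP-negative cells. The levels of Hlf and Gata2 had a rho of 0.53 over the GFP-positive and 0.56 over the GFP-negative cells. The points of these correlations share their repeats and the gene number of the cell, so they are given as descriptions.

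**Figure D3:**
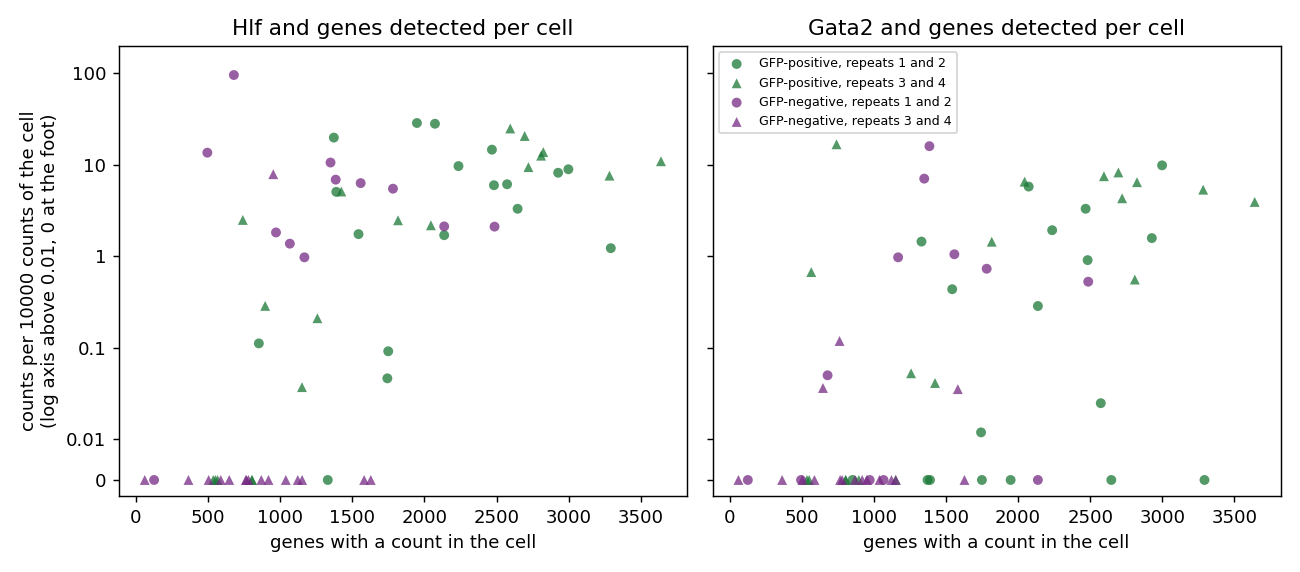
Level of Hlf (left) and Gata2 (right) as counts per 10000 counts of the cell (log axis with 0 at the foot) against the number of genes with a count in the same cell, for GFP-positive (green) and GFP-negative cells (purple), with repeats 1 and 2 as circles and repeats 3 and 4 as triangles. Apart from 1 cell at 7.92 Hlf counts per 10000, GFP-negative cells of repeats 3 and 4 lie at or near 0 across their range of gene numbers, including the 5 cells with 1000 to 2000 genes, none of which held Hlf.

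Most genes were found more often in GFP-positive cells, and the members are read against that background. Of 3489 genes with a count in at least 10 cells, 296 (8.48%) had an unadjusted exact permutation p under 0.05 and a higher share in GFP-positive cells, none had one with a lower share, and 0 passed after Benjamini-Hochberg adjustment (smallest adjusted p 0.337). Neither Hlf nor Gata2 was among the 296, and their adjusted exact permutation p over all genes were 0.545 and 0.439. The median difference over all 3489 genes was 19.4 points, so the 37.9 points of Hlf and 30.3 points of Gata2 lay on a shift shared by most genes. A larger difference than that of Hlf was seen for 269 genes (7.71%), and a larger one than that of Gata2 for 681 (19.5%).

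By pair of repeats the place of Hlf among all genes changed. In repeats 3 and 4, where the median gene differed by 18.3 points, 2 genes exceeded the 68.9 points of Hlf, 3 others (Arpc2, Inpp5d and Ston2) equalled it, and 98 genes (2.81%) exceeded the 49.4 points of Gata2. Since the pairs of repeats were formed after the values of Hlf and Gata2 were seen, these ranks restate that pattern and are no test of it. In repeats 1 and 2, where the median gene differed by 20.1 points, 75.4% of genes exceeded Hlf and 68.5% exceeded Gata2. All these were named after their values were seen. The 2 genes above Hlf were Neurl3, which encodes a neuralized-type E3 ubiquitin ligase, and AI662270. Neurl3 had counts in 16 of 19 GFP-positive and 2 of 16 GFP-negative cells of repeats 3 and 4, and in 16 of 18 and 10 of 12 cells of repeats 1 and 2. AI662270 had counts in 15 of 19 GFP-positive and 1 of 16 GFP-negative cells of repeats 3 and 4, and in 8 of 18 and 3 of 12 cells of repeats 1 and 2. Neurl3 was thus common in both groups of repeats 1 and 2, as Hlf was, while AI662270 was not.

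**Figure D4:**
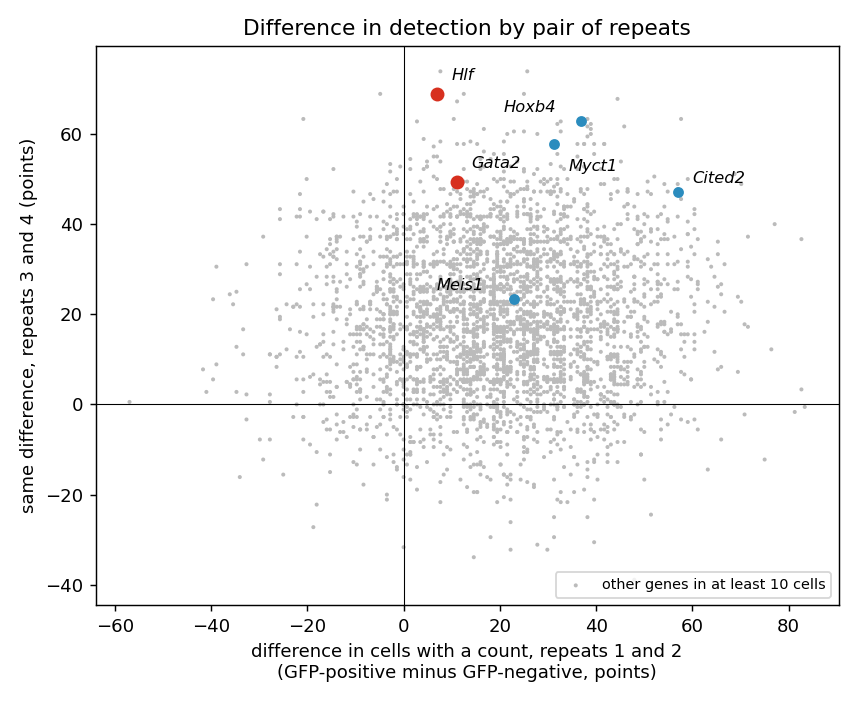
Difference in the share of cells with a count, GFP-positive minus GFP-negative in percentage points, in repeats 1 and 2 (horizontal axis) and in repeats 3 and 4 (vertical axis), for 3489 genes (grey), Hlf and Gata2 (red) and 4 other stem cell transcription factors found in over 30 cells (blue). Hlf lies at 6.94 and 68.9 points and Gata2 at 11.1 and 49.4 points, near the upper edge of the cloud and left of its centre.

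Summing the cells of each repeat into one profile gave no call for either gene. Hlf had 230.5, 1191, 758.4 and 400.4 CPM (counts scaled to the library size, with TMM factors) in GFP-positive sums, and 2687, 192.8, 0 and 57.99 CPM in GFP-negative sums. Gata2 had 88.0, 129.2, 349.1 and 181.6 CPM in GFP-positive sums, and 121.5, 7.87, 1.92 and 7.91 CPM in GFP-negative sums. For both genes the GFP-negative sum of repeat 1 was the one that reached the GFP-positive range. The TMM factors were 1.44 to 2.04 in GFP-positive sums and 1.51, 1.44, 0.29 and 0.223 in GFP-negative sums. They thus raised the CPM of GFP-negative repeats 3 and 4 and lowered the others. The GFP-positive sum of repeat 1 held 32087194 counts, and 1 cell of that repeat held 20516069. edgeR's quasi-likelihood test gave log2 fold changes of -0.19 ± 2.22 for Hlf (SE, adjusted p = 0.96) and 2.41 ± 2.12 for Gata2 (SE, adjusted p = 0.596), where the median of all genes was 1.15. It called 0 of 2786 genes (0%), while at an unadjusted p under 0.05 there were 180 higher and 122 lower, and DESeq2 called 11. That balance was 230 higher and 43 lower with total counts in place of TMM, and 212 higher and 9 lower with the replicate number as a block. The sign for Hlf turned to 2.75 without the GFP-negative cell rich in Hlf and to 2.72 with the replicate number as a block, with adjusted p from 0.363 to 0.985 over all alternatives.

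Most other stem cell transcription factors were scarce in GFP-negative cells of repeats 3 and 4, as Hlf and Gata2 were. Of 28 considered, 19 were in the table and all 19 had a count in some cell. Of these, 18 had the higher share in GFP-positive cells and 1 in GFP-negative cells, where 3261 of the 3489 genes found in at least 10 cells had the higher share in GFP-positive cells. The median difference of the 10 found in at least 10 cells was 32.05 points, beside 19.4 points over all genes, and 1 of the 10, the homeobox gene Hoxb3, had an unadjusted exact permutation p of 0.0286 (adjusted 0.337), where 8.48% of all genes were under 0.05. Hoxb3 had counts in 15 GFP-positive cells and 1 GFP-negative cell. Meis1, a homeodomain partner of Hox proteins, had counts in 12 of the 19 GFP-positive cells of repeats 3 and 4, and in 6 of the 16 GFP-negative cells. Meis1 was thus found in GFP-negative cells of the repeats in which Hlf was found in 1 such cell. All others of the 10 had counts in 0 to 3 of those 16 cells, and in 2 to 16 of the 19 GFP-positive cells. Myct1, a nuclear protein of stem cells and endothelium, had counts in 13 of 19 GFP-positive and 2 of 16 GFP-negative cells there, near the values of Gata2 (13 and 3). Cited2, a CBP/p300-binding regulator needed by stem cells, had counts in 9 and 0 cells. The difference between these genes and Hlf was not tested.

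**Figure D5:**
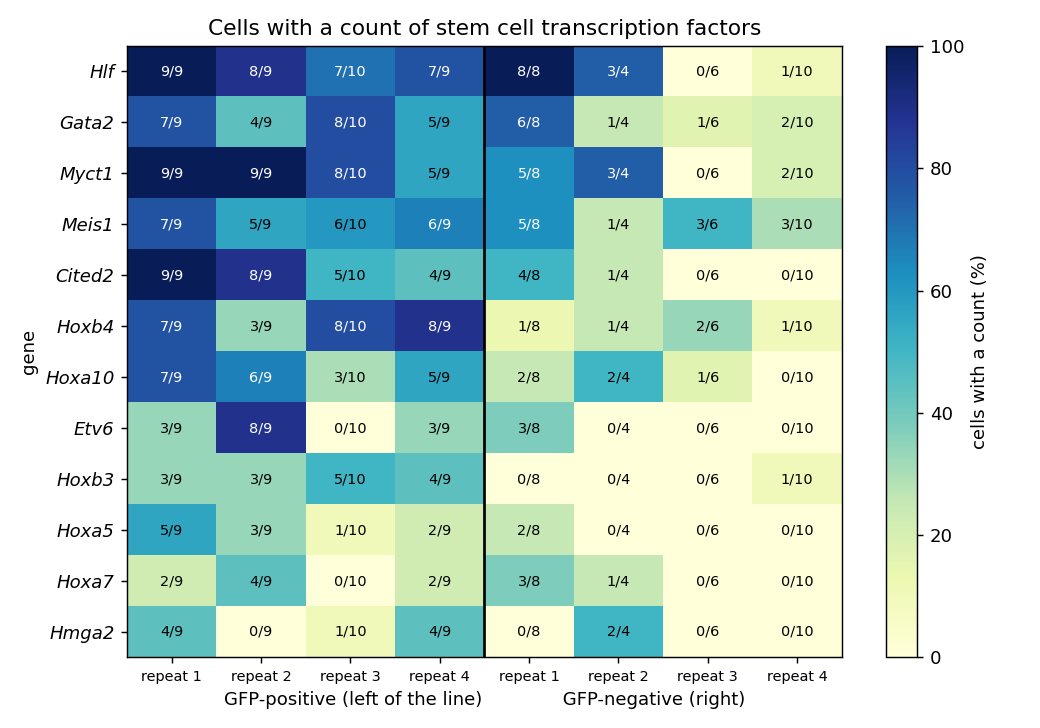
Cells with a count of Hlf, Gata2 and 10 other stem cell transcription factors found in at least 10 cells (rows), by biological repeat, in GFP-positive (left of the line) and GFP-negative cells (right); each box gives cells with a count over cells measured, and its colour the percentage. In GFP-negative repeats 3 and 4 Hlf reads 0/6 and 1/10, while Meis1 reads 3/6 and 3/10.

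Relatives of Hlf and the clock genes were sparse. Of 17 listed, 10 were in the table and 9 had a count. Bhlhe40, a repressor of clock genes, had counts in 15 GFP-positive and 7 GFP-negative cells, and Nr1d2, a nuclear receptor of the clock, in 13 and 9. Nfil3, which binds the same sites as PAR proteins and acts against them, had counts in 10 and 2 cells, and the PAR relative Dbp in 6 and 1. Hlf was found in more cells than any other listed member. None of the 4 members in at least 10 cells had an unadjusted exact permutation p under 0.05. Of all 3489 genes 8.48% had one, so 4 members are too few to set the list apart from that background. In repeats 3 and 4, Bhlhe40 was found in 4 of 19 GFP-positive and 0 of 16 GFP-negative cells, Nfil3 in 2 and 0, and Nr1d2 in 8 and 3. The clock genes Nr1d1 and Per1 had the higher share in GFP-negative cells, with counts in 3 GFP-positive and 4 GFP-negative cells for Nr1d1 and in 1 and 3 for Per1.

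Of 18 GATA factors and partners of the Gata2 complex, 3 were in the table, and besides Gata2 only Tcf3, an E protein, had a count, in 6 GFP-positive and 0 GFP-negative cells. The other listed GATA proteins and partners, Tal1, Lmo2 and Runx1 among them, were either not in the table as used here or had no count in any cell. Of 15 lineage transcription factors, 8 were in the table and 5 had a count. Bcl11a, a lymphoid and stem cell zinc-finger protein, had counts in 15 GFP-positive and 7 GFP-negative cells, Bcl11b, a T cell factor, in 14 and 6, and Id2, an inhibitor of E proteins, in 12 and 2. Their median difference was 15.9 points over the 4 found in at least 10 cells, beside 19.4 points over all genes. None of these 4 had an unadjusted exact permutation p under 0.05. With 8.48% of all 3489 genes under it, 4 genes are too few for that count to tell. Bcl11b had the opposite arrangement to Hlf in GFP-negative cells, with 0 of 12 cells in repeats 1 and 2 and 6 of 16 in repeats 3 and 4.

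Since Gata2 is also made by mast cells, megakaryocyte progenitors and endothelium, markers of those cells were counted, and their part in the Gata2 values was not tested. Of 11 mast cell and basophil markers 2 were in the table: Fcer1a, the defining receptor chain, was listed at 0 in all cells, and Il1rl1, the interleukin-33 receptor, had counts in 19 GFP-positive and 12 GFP-negative cells. The Il1rl1 level was low, at 0.0114 to 0.249 per 10000 over GFP-positive and 0.00156 to 0.523 over GFP-negative repeats. Of 12 megakaryocyte and platelet markers 8 were in the table and 4 had a count, with a summed level of 2.5 to 17.3 per 10000 over GFP-positive repeats and 0.0192 to 5.69 over GFP-negative repeats, while Gp9, Gp6, Gp1ba and Treml1 were at 0. Of 10 endothelial markers 2 were in the table and both had counts, at 0.225 to 2.2 per 10000 in GFP-positive and 0 to 0.657 in GFP-negative repeats. Pecam1, which stem cells also express, was found in 20 GFP-positive and 6 GFP-negative cells, and like co-detection of Hlf and Gata2 in no GFP-negative cell of repeats 3 and 4. Erythroid markers, 4 in the table of 11, were at 14.3 to 934.8 per 10000 in GFP-positive and 51.5 to 298.6 in GFP-negative repeats, with counts in 36 and 26 cells. B cell markers, 4 in the table of 8 with Ebf1 at 0, were at 0.00557 to 18.96 per 10000 in GFP-positive and 0 to 0.0591 in GFP-negative repeats, and Cd79a had counts in 8 and 3 cells. Neutrophil and monocyte markers, 8 in the table of 11 with Elane, Mpo, Ltf, Csf1r and Ccr2 at 0, were at 0 to 0.207 and 0 to 0.0698 per 10000 in GFP-positive and GFP-negative repeats. All 4 T and NK cell markers in the table were at 0.

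Over the 61 cells of at least 10000 counts, the gene whose level was most like that of Hlf was Inpp5d, which encodes the lipid phosphatase SHIP1 of blood cells. Its Spearman rho with Hlf was 0.85 among 1971 genes found in at least 20 of those cells, 0.76 over GFP-positive and 0.94 over GFP-negative cells, where the median gene had 0.35. Inpp5d had counts in 8, 8, 7 and 7 GFP-positive cells and 7, 4, 0 and 1 GFP-negative cells of repeats 1 to 4. This is nearly the series for Hlf, and 39 of all 65 cells held both. Next came Rps27a (0.74), a ribosomal protein gene fused to ubiquitin with many near-identical copies in the genome, so that its count is uncertain, Cxcr4 (0.74), the receptor for the marrow chemokine Cxcl12, Aldoa (0.74), a glycolytic enzyme, and Mettl23 (0.71), a methyltransferase. These genes themselves followed the gene number of the cell, with rho from 0.60 for Rps27a to 0.81 for Aldoa, and 0.64 for Inpp5d.

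Gata2 was less closely matched by any gene. Its leading likeness was with Sarnp (0.69), an mRNA export protein, followed by Nsa2 (0.67), a ribosome assembly factor, Snx18 (0.67), a sorting nexin, Gabarapl1 (0.67), an autophagy protein, and Gm21811 (0.65). Gabarapl1 had counts in 30 GFP-positive and 7 GFP-negative cells, and in none of the GFP-negative cells of repeats 3 and 4. Hlf stood at place 30 in likeness to Gata2 and Gata2 at place 126 in likeness to Hlf, with the same rho of 0.59 in both rankings. A share of 1.47% of genes was thus more like Gata2 than Hlf was, and 6.34% were more like Hlf than Gata2 was.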

How the data were processed

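Polyadenylated RNA of 65 single mouse cells was measured with SMART-Seq v4 and Nextera XT, per the labels' protocols. The authors deposited estimated counts per NCBI gene; the submitters' processing notes name DESeq and mm10, while aligner, counter and annotation are not stated there or in the labels. The table is described as normalized, yet its cell totals run from 86 to 20516069 and 78.2% of values from 0.5 to 20 are whole within 0.0001, so values were taken as unscaled estimated counts. The kit marks neither strand nor molecule, so amplified copies are counted and intervals cover counting error only. Of 18036 identifiers, 16216 matched a symbol in RefSeq (GRCm38.p6), and the rest held 0.13% of counts. The table as used here has 1 matched identifier on chromosome 2 and 0 on chromosomes 3, 4, 15 and 16, so totals and gene numbers cover the listed genes only. Sequences are from RefSeq.

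A gene was detected in a cell at any value above 0. Shares and levels were averaged within a repeat, and 4 GFP-positive were compared with 4 GFP-negative repeats by two-sided exact permutation tests over 70 arrangements. Labels give repeats but no animals, so p-values measure the spread between repeats. Thinning used rounded counts and the exact chance of at least 1 count in 10000. Counts rounded and summed per repeat went to edgeR 4.0.16 (quasi-likelihood, TMM; R 4.3.3), with DESeq2 1.42.0 as an alternative; other steps used Python 3.11.15, numpy 2.4.6, pandas 2.3.3 and scipy 1.17.1. Both tests were tested on simulated data. The deviations of same-numbered sums correlated at 0.55, 0.295, 0.166 and 0.155. By the rule used (over 0.1 in every pair) the numbers pair the samples, and paired fits were run beside the unpaired ones. GFP-positive repeat 4 also correlated with GFP-negative repeat 3, at 0.139, so the pairing within repeats 3 and 4 is not settled. The p-values in the Results are unpaired, and the paired sign-flip p ran from 0.125 to 0.75 over the 8 comparisons.

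The members and lists were chosen with earlier results of these data known, and 1 listed gene is not reported here. Named were Hlf, Gata2, at most 3 members a list with the most cells and the 5 genes most like each member by Spearman rho; other genes are named as chosen after their values were seen, as are Hoxb3, Cited2, Tcf3, Nfil3 and Dbp. Alternatives were other count cutoffs, cell filters, thinning depths, scalings, low-count filters and left-out repeats.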

Additional observations from a re-analysis of the deposited data

Results flagged for a closer look

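Of 30 groups of 4 to 10 repeats or cells in which the gap of an extreme value was set against Dixon's 95% limit, 10 had a value far from the others; chance flags about 1 in 20 groups of normally spread values, a rate that is not met by cell levels with many zeros, where a lone cell above 0 always stands apart. The Gata2 detection share of 75% in GFP-negative repeat 1 stood apart from 25% in the next repeat, and so did its level of 3.68 per 10000 beside 0.244. Single cells stood apart for Hlf in GFP-positive repeat 4 (25.03 per 10000, next 12.6), GFP-negative repeat 1 (96.2, next 10.6) and GFP-negative repeat 4 (7.92, all others 0). For Gata2 they did so in GFP-positive repeats 1 (9.9, next 3.32), 2 (5.8, next 1.45) and 3 (16.8, next 8.28), and in GFP-negative repeats 3 (0.0354, all others 0) and 4 (0.119, next 0.0364). The last pair rest on 1 and 2 counts.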

How the results depend on the processing

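The detection and co-detection shares with any count kept their direction under all 24 alternatives each; many of these leave too few repeats for an exact permutation p under 0.05, so their p-values say nothing of stability. Leaving out repeats moved the Hlf share difference between 22.5 and 55.83 points, Gata2 between 19.26 and 43.89 and co-detection between 22.22 and 50.83; thinned, the ranges were 2.219 to 36.7, 11.73 to 36.62 and 10.23 to 33.05. With repeats 1 and 2 alone, the thinned differences were -15.53, -0.773 and -3.731 points, the Hlf level difference -2.474 and the Gata2 level difference -0.535 per 10000. The Hlf level difference was also -2.383 with cells of 20000 to 700000 counts, rose past the threshold at 6.747 with cells of at least 1000 genes and 4.766 without the GFP-negative cell of highest Hlf, and ran from -0.3266 to 5.706 over left-out repeats (Gata2 0.2826 to 2.323). The Hlf log2 fold change of summed counts turned to 0.212 with cells rescaled, 2.719 with the replicate block (paired fit), 3.094 with cells of at least 1000 genes and 2.746 without that cell, and ran from -1.077 to 3.071 over left-out repeats, with GFP-negative repeat 1 deciding the sign; Gata2 ran from 1.274 to 5.181. The paired fits and sign-flip tests (smallest possible exact p 0.125) changed no call, though the sign-flip test cannot make one. DESeq2 called 11 genes (edgeR 0), and 190 genes had an unadjusted p under 0.05 for detection with cells of at least 10000 counts, in place of 296. The causes were not tested. Depth limits shares resting on 4 to 10 cells a repeat.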
